A study of Aconitum japonicum with 4 samples.

Results

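Isopentenyl diphosphate isomerase (IPPI) and geranylgeranyl diphosphate synthase (GGPPS) are the enzymes that stand between the supply of isoprene units and the diterpenes of *Aconitum japonicum*. They are described here through their most abundant transcripts, TR42449|c0_g2_i1 for IPPI and TR47741|c1_g1_i2 for GGPPS, which are 2 of the 129760 transcripts of the de novo assembly. Both were selected on their deposited FPKM, as the most abundant transcript of each enzyme among the 50 transcripts that the study assigned to the pathway of diterpene alkaloids, so their levels are a description and no test was made on them. The Trinity gene of the IPPI transcript held 1 transcript and that of the GGPPS transcript held 2, which gives 3 transcripts in all. A further short transcript of the same Trinity component as IPPI is described beside them.

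The expression was measured by RNA-seq in the leaf, the mother root, the daughter root and the rootlet of plants grown in a greenhouse at the Health Sciences University of Hokkaido, with 1 library per organ from a single biological replicate. No treatment, age or cultivar is named for them. The mother root is the main tuber, the daughter root is a new tuber formed from it, and rootlets are fine fibrous roots. With 1 library per organ, differences between organs have no replicate check, and the limits given below are exact 95% limits for counting error only. Expression is given as FPKM, the number of fragments per kilobase of transcript, scaled to the number of mapped fragments.

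The libraries held from 4492151 expected counts in the rootlet and 4516426 in the leaf to 11801534 in the mother root and 12792781 in the daughter root, so a given FPKM rests on fewer fragments in the leaf and rootlet. The summed FPKM of 9 photosynthetic transcripts was 239.5 in the leaf, 3.5 in the mother root, 2.23 in the daughter root and 5.01 in the rootlet. Of these, 6 come from a list that the study chose for being found in the leaf alone. Their absence from the roots was set by that choice, so they cannot check the leaf label. The other 3 summed to 6.73, 3.5, 2.23 and 5.01 FPKM in the same order, a small excess in the leaf that says little on the label.

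Plants make isopentenyl diphosphate (IPP) through the mevalonate (MVA) pathway outside the plastid and through the methylerythritol (MEP) pathway inside it. IPPI interconverts IPP and its isomer dimethylallyl diphosphate, the primer on which prenyl chains are built. GGPPS adds IPP units to that primer until geranylgeranyl diphosphate (GGPP) is reached, from which plants make gibberellins, carotenoids, the phytyl tail of chlorophyll and, in *Aconitum*, the skeletons of the diterpene alkaloids. In *Arabidopsis thaliana*, GGPPS is encoded by a family of genes whose products are placed in different compartments of the cell.

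IPPI was expressed at a high level in all 4 organs, with its highest FPKM in the leaf. TR42449|c0_g2_i1, a transcript of 1313 bases, had 224.35 FPKM in the leaf (limits 212 to 238), 185.02 in the mother root (178 to 192), 166.6 in the daughter root (160 to 173) and 96.9 in the rootlet (88.7 to 106). These values rest on 1180, 2544, 2485 and 507 fragments. Rootlet stood lowest, and the limits of no pair of organs overlapped. By rank, TR42449|c0_g2_i1 lay within the top 0.575% of the transcripts detected in the leaf, 1.03% in the mother root, 1.23% in the daughter root and 2.98% in the rootlet. Transcripts above 0 FPKM count as detected, from 79662 in the rootlet to 106960 in the mother root. These percentages therefore place a transcript within its library and are not compared between organs.

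The range over the organs was smaller for IPPI than for most transcripts of similar mean FPKM. Leaf exceeded mother root 1.21-fold (1.13 to 1.30), daughter root 1.35-fold (1.26 to 1.44) and rootlet 2.32-fold (2.08 to 2.57). Among the roots, mother root exceeded rootlet 1.91-fold (1.74 to 2.10) and daughter root exceeded it 1.72-fold (1.56 to 1.90). Mother root and daughter root were nearest, at a ratio of 1.11 (1.05 to 1.17), and the ratio was 0.962 (0.910 to 1.02) when the libraries were scaled by median-of-ratios factors. With TPM, for which FPKM is scaled to an equal total per library, the ratio of leaf to mother root was 1.05 (0.977 to 1.12). The order of mother root and daughter root, and the lead of leaf over mother root, thus depended on the scaling, whereas rootlet was below the other 3 organs beyond the counting limits under each of the 3 scalings. Of the 2026 transcripts whose mean FPKM lay within 2-fold of that of IPPI (168 FPKM), 24.5% had a highest to lowest ratio no larger than its 2.32, and their median ratio was 4.13.

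GGPPS was expressed at a lower level and was also highest in the leaf, but its lowest value was in the mother root. TR47741|c1_g1_i2, of 1471 bases, had 29.97 FPKM in the leaf (25.7 to 34.7), 8.33 in the mother root (6.96 to 9.89), 15.17 in the daughter root (13.4 to 17.1) and 11.61 in the rootlet (9.04 to 14.7). The fragments behind these values were 179, 130, 257 and 69. The limits do not cover how fragments that also fit the other transcript of its Trinity gene were divided. Leaf stood above the other 3 libraries with no overlap of limits, while the limits of rootlet overlapped those of daughter root and of mother root. By rank, it lay within the top 6.30% of the transcripts detected in the leaf, 16.3% in the mother root, 10.7% in the daughter root and 18.4% in the rootlet. Fewer transcripts were detected in the rootlet, so its percentage is larger although its rank of 14647 is higher up than the 17475 in the mother root.

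Leaf exceeded mother root 3.60-fold for GGPPS (2.86 to 4.55), daughter root 1.97-fold (1.62 to 2.40) and rootlet 2.58-fold (1.94 to 3.46). Mother root stood at 0.549 of daughter root (0.441 to 0.680) and at 0.717 of rootlet (0.531 to 0.974). The ratio of daughter root to rootlet was 1.31, and its limits of 0.998 to 1.73 included 1, so the order of these neighbours was not resolved at this depth with FPKM as deposited. The limits on this ratio were 1.0045 to 1.74 with TPM and 1.02 to 1.77 with median-of-ratios factors, and both narrowly exclude 1. Among the 12775 transcripts of similar mean level (within 2-fold of 16.3 FPKM), 56.0% had a highest to lowest ratio no larger than the 3.60 of GGPPS, and the median was 3.01. Unlike that of IPPI, the range of GGPPS across organs was thus near the middle of its class of expression, again matched on FPKM and not on fragments.

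**Figure D1:**
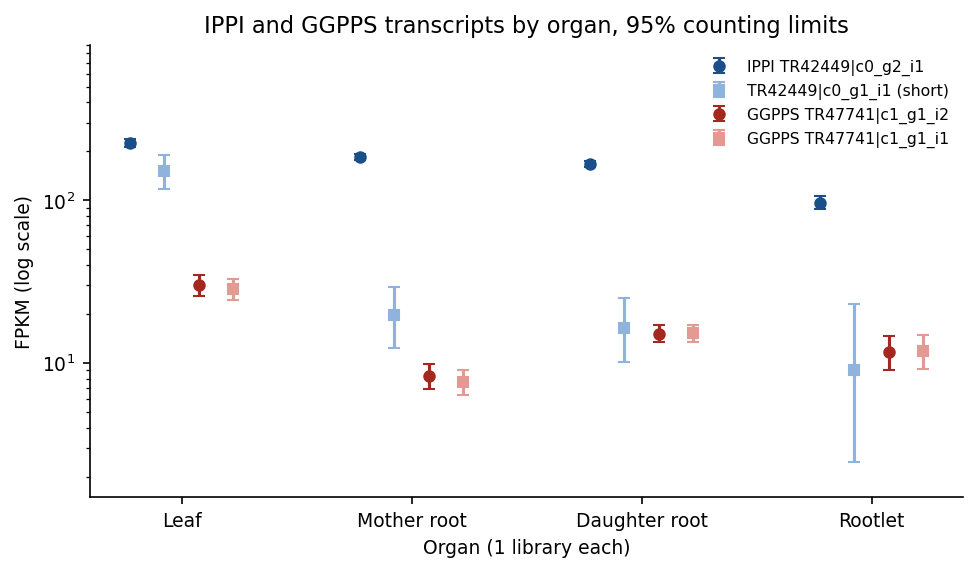
FPKM on a log axis of the IPPI and GGPPS transcripts in the 4 organs, with 1 library per organ. Points are the deposited values and bars are exact 95% Poisson limits on the fragment counts; IPPI ranges from 224.35 in the leaf to 96.9 in the rootlet, and both GGPPS transcripts are lowest in the mother root.

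The other transcript of the GGPPS Trinity gene followed the first in every organ. TR47741|c1_g1_i1, of 1505 bases, had 28.4 FPKM in the leaf, 7.62 in the mother root, 15.25 in the daughter root and 11.81 in the rootlet. Its ratio to TR47741|c1_g1_i2 was 0.948 in the leaf (0.765 to 1.17), 0.915 in the mother root (0.709 to 1.18), 1.01 in the daughter root (0.844 to 1.20) and 1.02 in the rootlet (0.721 to 1.44). All 4 intervals included 1. How fragments that fit both transcripts were handled is not known, since the deposited expected counts are all whole numbers, so ratios near 1 between these transcripts are uncertain. Summed over the Trinity gene, GGPPS had 58.37 FPKM in the leaf, 15.95 in the mother root, 30.42 in the daughter root and 23.42 in the rootlet. For this sum, the ratio of daughter root to rootlet was 1.30 with limits of 1.08 to 1.58, which exclude 1. These limits on the sum assume that no fragment was counted for both transcripts.

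The short transcript of the IPPI component had an organ profile of its own. TR42449|c0_g1_i1 is 247 bases long, carries another Trinity gene number than IPPI and was not assigned to the pathway by the study, so it is not called IPPI here. It had 150.33 FPKM in the leaf (117 to 191), 19.65 in the mother root (12.5 to 29.5), 16.4 in the daughter root (10.2 to 25.1) and 9.01 in the rootlet (2.45 to 23.1), from 67, 23, 21 and 4 fragments. Leaf was far above the roots, which did not differ from each other beyond their limits.

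Set against the IPPI transcript of the same library, TR42449|c0_g1_i1 stood at 0.670 in the leaf, 0.106 in the mother root, 0.0984 in the daughter root and 0.0930 in the rootlet. The ratio in the leaf was 6.31 times that in the mother root (3.85 to 10.7), 6.81 times that in the daughter root (4.09 to 11.8) and 7.21 times that in the rootlet (2.66 to 27.3). Between the root libraries the limits on this change included 1. FPKM of so short a transcript depends strongly on the effective length that RSEM assumed, but this length was nearly the same in the 4 libraries, from 98.68 to 100.08 bases.

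Across the transcriptome, the excess in the leaf was common. For log2 ratios, 1 was added to each FPKM and leaf was set against the mean of the 3 root libraries. TR42449|c0_g2_i1 had a log2 ratio of 0.58 and TR47741|c1_g1_i2 one of 1.29, so 1 of the 2 members was past 2-fold. Of the 52006 transcripts with at least 5 FPKM in at least 1 library, 61.5% were past 2-fold, 33.0% in the same direction and 28.5% in the other, with a median log2 ratio of 0.01. The ratio of IPPI lay above that of 61.0% of these transcripts and the ratio of GGPPS above that of 70.4%, so neither stood apart from the background. The short TR42449|c0_g1_i1, at 3.24, lay above 94.9%. Summing the FPKM of the IPPI component, with this short transcript included, gave a log2 ratio of 1.18, which is past 2-fold. In the leaf this sum took 150.33 FPKM from 67 fragments of the short transcript and 224.35 from 1180 fragments of IPPI. The short transcript thus weighed in the sum far beyond its fragments, and the rise from 0.58 rests on it.

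By single root libraries, 1 of the 2 members was past 2-fold in leaf over mother root (GGPPS, 33.7% of transcripts in that direction), 0 in leaf over daughter root (37.2%) and both in leaf over rootlet (36.2%). Between the roots, 0 of the 2 members were past 2-fold in any of the 3 comparisons, where the share of transcripts past 2-fold in either direction was 34.5% for mother root over rootlet, 41.1% for daughter root over rootlet and 24.0% for mother root over daughter root.

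Between the tubers the members stood on opposite sides with FPKM as deposited, while with median-of-ratios factors both ratios were below 1, that of IPPI within its counting limits. As deposited, the log2 ratio of mother root over daughter root was 0.15 for IPPI, close to the median of 0.09 over all transcripts, and -0.79 for GGPPS, a value below which 12.3% of transcripts lay. Leaf was the organ of the highest FPKM for 41.6% of the 52006 transcripts, the mother root for 16.3%, the daughter root for 15.6% and the rootlet for 26.5%. The full order of IPPI, leaf, mother root, daughter root, rootlet, was found in 8.27% of them, and that of GGPPS, leaf, daughter root, rootlet, mother root, in 1.95%. Both orders were read from the deposited FPKM of the members, so these shares are a description. The order of IPPI depended on the scaling, and daughter root and rootlet were not resolved for GGPPS as deposited.

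**Figure D2:**
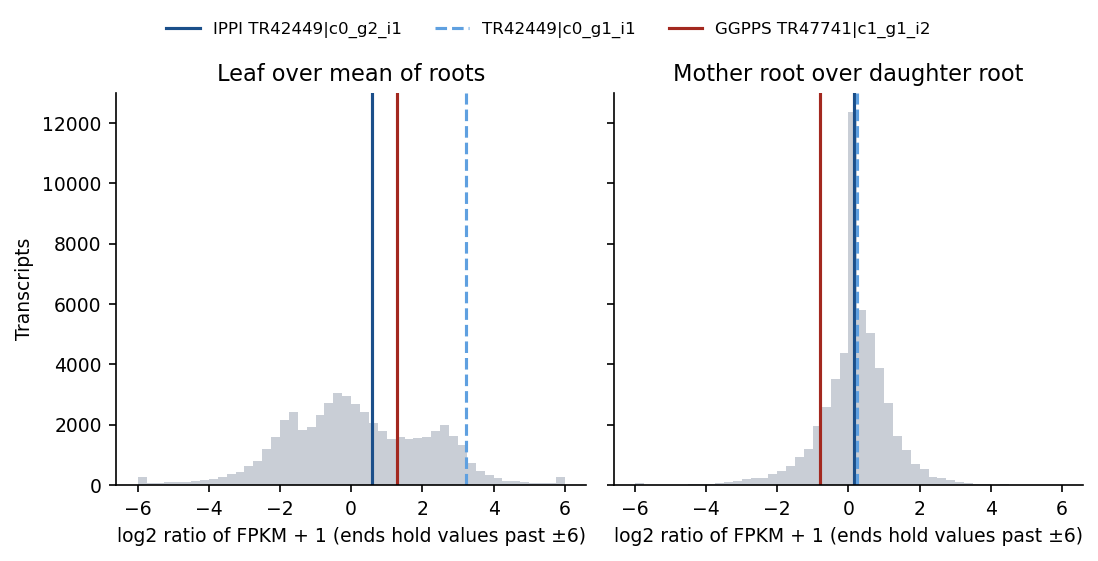
Number of transcripts (vertical axis) by log2 ratio of FPKM + 1 (horizontal axis) for leaf over the mean of the roots and for mother root over daughter root, over the 52006 transcripts with at least 5 FPKM in a library. Lines mark IPPI at 0.58 and 0.15, GGPPS at 1.29 and -0.79, and the short TR42449|c0_g1_i1 at 3.24 and 0.25.

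IPPI was dominated by 1 transcript in every organ, and GGPPS was not. The study assigned 3 transcripts to IPPI, and TR42449|c0_g2_i1 held 94.2% of their summed FPKM in the leaf, 97.4% in the mother root, 94.9% in the daughter root and 96.0% in the rootlet. The other 2 are TR54138|c0_g1_i2 and TR54138|c0_g1_i3, annotated as similar to a nudix hydrolase, the superfamily to which IPP isomerases also belong. TR54138|c0_g1_i2 had 8.48 FPKM in the leaf, 3.18 in the mother root, 4.93 in the daughter root and 1.72 in the rootlet, and TR54138|c0_g1_i3 had 5.22, 1.75, 3.97 and 2.3. Both had their highest FPKM in the leaf like the leading IPPI transcript. For TR54138|c0_g1_i3, however, the ratio of leaf to daughter root was 1.31 with limits of 0.837 to 2.03, which include 1. For both, mother root stood below daughter root, at 0.645 (0.497 to 0.835) and 0.440 (0.273 to 0.692). The remaining transcript of TR54138|c0_g1, 254 bases long and not assigned by the study, had 3 fragments or fewer per library. By the selection on abundance, the distance between the chosen IPPI transcript and the next was thus 224.35 against 8.48 FPKM in the leaf.

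For GGPPS the selection was close, with 29.97 FPKM in the leaf for TR47741|c1_g1_i2 against 28.4 for TR47741|c1_g1_i1 and 27.98 for TR51056|c0_g1_i1. The study assigned 5 transcripts of 3 Trinity genes to GGPPS. The chosen transcript held 25.6% of their summed FPKM in the leaf, 20.8% in the mother root, 22.7% in the daughter root and 26.8% in the rootlet. The whole Trinity gene TR47741|c1_g1 held 49.9%, 39.8%, 45.6% and 54.0% in the same order.

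A different GGPPS transcript led in each organ. In the leaf it was TR47741|c1_g1_i2, in the mother root TR49767|c0_g1_i1 at 11.55 FPKM, in the daughter root TR49767|c0_g1_i4 at 16.31 and in the rootlet TR47741|c1_g1_i1 at 11.81. In every organ the limits of the leading transcript overlapped those of the next, so these leads lay within counting error. Against the GGPPS member itself, TR49767|c0_g1_i1 stood apart in the mother root, where its limits (10.03 to 13.2) lay above those of TR47741|c1_g1_i2.

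The 3 Trinity genes of GGPPS differed in how they were spread over the organs. TR51056|c0_g1_i1 had 27.98 FPKM in the leaf, 2.92 in the mother root, 4.08 in the daughter root and 1.16 in the rootlet, from 121, 33, 50 and 5 fragments. Its share of the GGPPS sum was 23.9% in the leaf and from 2.68% to 7.29% in the roots. The excess of leaf over mother root was larger for TR51056|c0_g1_i1 than for the GGPPS member by 2.66 times (1.67 to 4.30), and that over rootlet by 9.33 times (3.64 to 30.4).

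TR49767|c0_g1 was the most even of the GGPPS genes, with highest to lowest ratios of 2.18 and 1.69 for its assigned transcripts. TR49767|c0_g1_i1 had 15.47 FPKM in the leaf, 11.55 in the mother root, 15.95 in the daughter root and 7.33 in the rootlet, and TR49767|c0_g1_i4 had 15.21, 9.64, 16.31 and 11.43. For both, the limits on the ratio of leaf to daughter root included 1. The excess of leaf over mother root was 2.69 times larger for TR47741|c1_g1_i2 than for TR49767|c0_g1_i1 (1.92 to 3.77), and that over daughter root 2.04 times (1.51 to 2.76).

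The balance of TR47741|c1_g1 and TR49767|c0_g1 differed between leaf and mother root. The sum of TR47741|c1_g1 was 1.90 times that of the assigned TR49767|c0_g1 transcripts in the leaf (1.60 to 2.27) and 0.753 of it in the mother root (0.639 to 0.886). In the daughter root the ratio was 0.943 (0.837 to 1.06) and in the rootlet 1.25 (0.974 to 1.60), and both intervals included 1. The remaining transcript of TR49767|c0_g1, 276 bases long and not assigned by the study, lowered these ratios to 1.26, 0.535, 0.794 and 0.976 when included, although it rests on 13 fragments or fewer per library. The limits in the daughter root were then 0.705 to 0.893, which exclude 1.

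**Figure D3:**
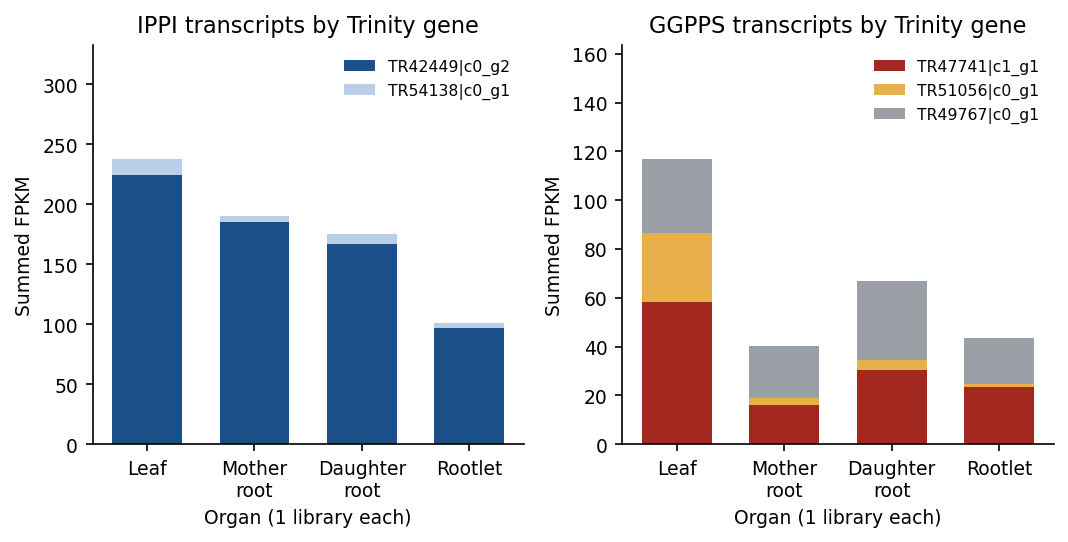
Summed FPKM of the transcripts assigned to IPPI (left) and GGPPS (right) in each organ, with 1 library each, stacked by Trinity gene. TR42449|c0_g2 makes up at least 94.2% of each IPPI bar, while TR47741|c1_g1 makes up from 39.8% to 54.0% of the GGPPS bars and TR51056|c0_g1 is visible mainly in the leaf.

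The ratio of IPPI to GGPPS within a library does not depend on how libraries are scaled, and it was highest in the mother root. It was 7.49 in the leaf (6.39 to 8.81), 22.2 in the mother root (18.6 to 26.7), 11.0 in the daughter root (9.65 to 12.5) and 8.35 in the rootlet (6.48 to 10.9). Mother root exceeded leaf 2.97-fold in this ratio (2.33 to 3.79), daughter root 2.02-fold (1.62 to 2.54) and rootlet 2.66-fold (1.93 to 3.65). Daughter root exceeded leaf 1.47-fold (1.19 to 1.80). Leaf and rootlet were not resolved, at 0.897 (0.657 to 1.22), nor were daughter root and rootlet, at 1.32 (0.977 to 1.75).

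The size of the ratio depends on which transcripts are counted, and the place of mother root does not. With the sums of the Trinity genes it was 3.84 in the leaf, 11.6 in the mother root, 5.48 in the daughter root and 4.14 in the rootlet. With all transcripts assigned to each enzyme it was 2.03, 4.74, 2.63 and 2.33. Mother root was highest in each of the 3 versions, which share fragments and so are not independent. Leaf had the lowest value in each, but its limits overlapped those of rootlet every time.

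**Figure D4:**
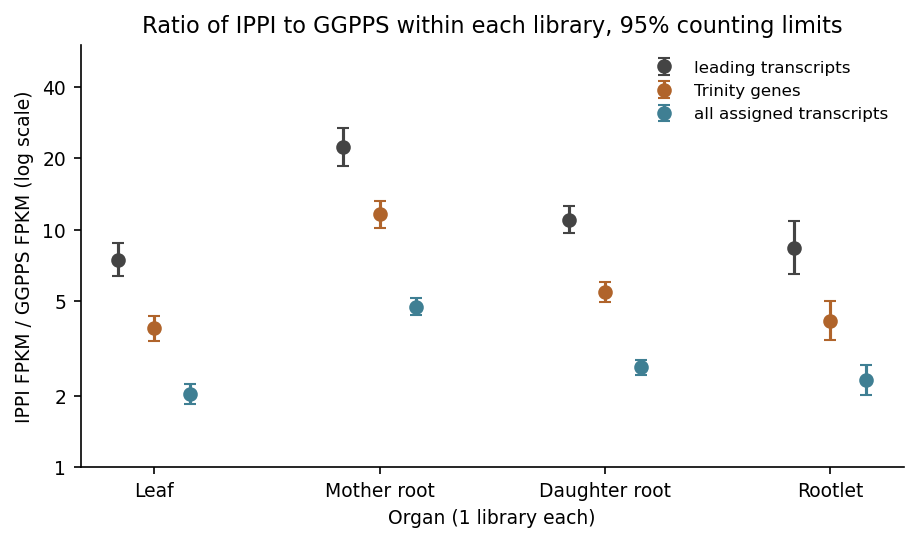
Ratio of IPPI FPKM to GGPPS FPKM within each library (log axis) for the leading transcripts, the Trinity genes and all assigned transcripts, with 95% conditional binomial limits on the fragments as bars. Mother root is highest in each version, at 22.2, 11.6 and 4.74.

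Upstream of IPPI, the last enzymes of the MEP and MVA pathways differed from it in their spread over the organs. ISPH releases IPP together with dimethylallyl diphosphate at the end of the MEP pathway, and its transcript TR49449|c3_g1_i1 had 369.32 FPKM in the leaf, 88.91 in the mother root, 102.74 in the daughter root and 74.17 in the rootlet. Its ratio to IPPI was 1.65 in the leaf, 0.481 in the mother root, 0.617 in the daughter root and 0.765 in the rootlet. In the leaf, ISPH was thus above IPPI, and in each root library below it. Leaf exceeded mother root 3.43-fold in this ratio (3.12 to 3.76).

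MVDD forms IPP at the end of the MVA pathway. TR50920|c0_g1_i1, the MVDD transcript, had 5.05 FPKM in the leaf, 26.55 in the mother root, 32.97 in the daughter root and 22.32 in the rootlet. Its ratio to IPPI was 0.0225, 0.143, 0.198 and 0.230 in the same order, and mother root exceeded leaf 6.37-fold (4.54 to 9.17). The leading IPPI transcript had a smaller range over the organs than either of these transcripts, at 2.32-fold against 4.98-fold for ISPH and 6.53-fold for MVDD. The other 2 IPPI transcripts ranged 4.93-fold (TR54138|c0_g1_i2) and 2.98-fold (TR54138|c0_g1_i3).

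Downstream of GGPPS, the diterpene synthases turn GGPP into kaurene or atisene skeletons. Copalyl diphosphate synthase (CDPS) carries out the first cyclisation, and its leading transcript, TR54020|c0_g1_i5, had 0 fragments in the leaf, 7 in the mother root, 3 in the daughter root and 7 in the rootlet, too few for a comparison with GGPPS. Of the 3 transcripts assigned to CDPS, 1 was highest in the leaf and 2 in the rootlet, against 41.6% and 26.5% of all transcripts. Kaurene synthase (KS), the next enzyme, was led by TR44184|c3_g1_i2 with 15.23 FPKM in the leaf, 349.84 in the mother root, 34.15 in the daughter root and 206.51 in the rootlet. By deposited FPKM, this order of the organs was the reverse of that of TR47741|c1_g1_i2, for which daughter root and rootlet were not resolved. Other GGPPS transcripts had other orders, with TR49767|c0_g1_i1 and TR51056|c0_g1_i1 lowest in the rootlet.

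The ratio of KS to GGPPS was 0.508 in the leaf (0.412 to 0.627), 42.0 in the mother root (35.3 to 50.3), 2.25 in the daughter root (1.97 to 2.59) and 17.8 in the rootlet (14.0 to 22.9). Mother root exceeded leaf 82.7-fold in this ratio (62.6 to 109). With all assigned GGPPS transcripts in place of the leading one, KS stood at 0.130 of GGPPS in the leaf and 0.512 in the daughter root, but at 8.73 times GGPPS in the mother root and 4.76 times in the rootlet. Kaurene oxidase (KO), which oxidises the kaurene skeleton, had the same organ order as KS in its leading transcript, TR40067|c2_g1_i1. The ratio of this transcript to GGPPS was 0.724 in the leaf, 38.5 in the mother root, 5.50 in the daughter root and 18.2 in the rootlet. Of the 9 transcripts assigned to KO, 4 were highest in the leaf, 3 in the daughter root and 1 each in mother root and rootlet. Over all transcripts at 5 FPKM or more, leaf was highest for 41.6% and mother root for 16.3%. As these are whole organs, fewer cells that express a transcript and less of it per cell cannot be told apart.

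**Figure D5:**
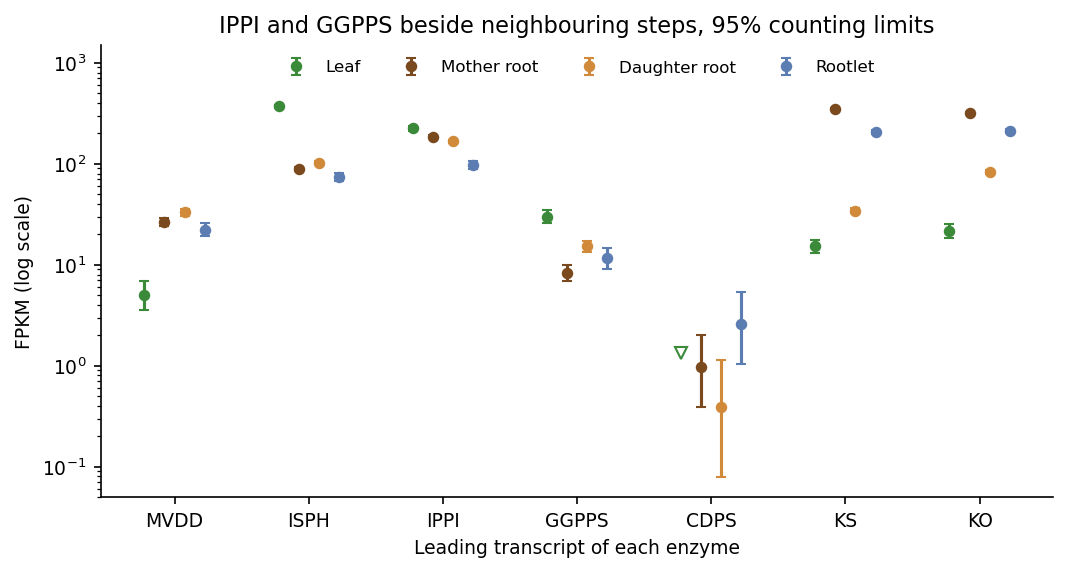
FPKM on a log axis of IPPI, GGPPS and the leading transcripts of the steps before (MVDD, ISPH) and after them (CDPS, KS, KO) in the 4 organs, with exact 95% Poisson limits. The open triangle is the upper limit of 1.35 FPKM for the leading CDPS transcript in the leaf, where 0 fragments of it were counted. The leading KS and KO transcripts are highest in the mother root, the organ where the GGPPS transcript is lowest at 8.33.

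Profiles were also compared across the 50 pathway transcripts, by the root mean square difference of log2(FPKM + 1) after centring over the 4 libraries. The pathway transcript nearest to IPPI was TR49767|c0_g1_i1, a GGPPS, at 0.22, followed by TR49281|c2_g1_i3 at 0.32 and TR54138|c0_g1_i2 at 0.34. TR49281|c2_g1_i3 is assigned to acetoacetyl-CoA thiolase (AACT), the entry to the MVA pathway. With 4 libraries such likeness is common, since 1071 of 52005 transcripts were as near to IPPI as the first of these. The GGPPS member was only the 17th nearest of 49, at 0.58.

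The nearest of all transcripts to TR47741|c1_g1_i2 was TR47741|c1_g1_i1, at 0.06. How fragments that fit both of these transcripts were handled is not known, so this likeness may come in part from that step, which was not tested. Outside its Trinity gene, the nearest pathway transcript was TR54138|c0_g1_i3, assigned to IPPI, at 0.24, a distance within which 384 of 52005 transcripts lay. TR53909|c0_g1_i5, assigned to KO, followed at 0.29 but rests on 6 fragments or fewer per library, and TR54138|c0_g1_i2 came next at 0.39. The leading IPPI was the 14th of 48. Low FPKM shrinks such distances, because 1 is added to each value before the log.

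Among the 48 other pathway transcripts, leaf was highest for 15, daughter root for 19, rootlet for 11 and mother root for 3. Over all transcripts these organs were highest for 41.6%, 15.6%, 26.5% and 16.3%, in the same order. Of the 48, 8 were past 2-fold higher in the leaf (16.7%, against 33.0% of all transcripts) and 13 lower (27.1%, against 28.5%). Their median log2 ratio was 0.19 against 0.01. Of the 13 transcripts of the MVA pathway, 0 were highest in the leaf, against 41.6% of all transcripts, and 4 (30.8%) were past 2-fold lower there, which is near the 28.5% of all transcripts. The 17 of the MEP pathway, where the study also places the other 2 IPPI transcripts, had 8 (47.1%) that were highest in the leaf and 6 (35.3%) past 2-fold higher, shares near the 41.6% and 33.0% of all transcripts. From GGPPS onward, 2 of the other 18 transcripts (11.1%, against 33.0% of all transcripts) were past 2-fold higher in the leaf. Both are GGPPS, TR51056|c0_g1_i1 and TR47741|c1_g1_i1, and the latter belongs to the Trinity gene of the member. Past 2-fold lower in the leaf were 6 (33.3%, near the 28.5% of all transcripts), of which 2 were KS, 3 KO and 1 CDPS. The pathway transcripts were not filtered on their level, unlike the transcripts they are set against.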

How the data were processed

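The values come from RNA-seq of 4 organs, with 1 library each. The authors trimmed the reads (Trimmomatic), built 1 assembly from the 4 organs (Trinity), reduced its redundancy (CD-HIT-EST), mapped each organ to it (Bowtie 2) and quantified the transcripts (RSEM). As deposited by the authors, each table gives the expected count, FPKM, TPM and an isoform percent per transcript. All expected counts were whole numbers, and FPKM recomputed from them lay within 0.0051 plus 0.1% of the deposited FPKM. The percent column was not used, because each transcript is its own gene in it, so Trinity genes were taken from the transcript names. Total counts are given as depth. The main measure was the deposited FPKM, without further normalization. For the TPM alternative, FPKM was scaled to an equal total per library.

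Limits at 95% were exact Poisson for a level, conditional binomial (Clopper-Pearson) for a ratio and conditional exact for a ratio of ratios. They cover counting error only. Log2 ratios used a pseudocount of 1 FPKM, and background shares cover transcripts with at least 5 FPKM in at least 1 library. No test between organs was possible with 1 library per organ. The limits were tried on simulated Poisson counts with known ratios. The simulation held no spread between replicates and no fragments shared between transcripts, so it bears on counting error alone. Python 3.11.15, numpy 2.4.6, pandas 2.3.3, scipy 1.17.1 and matplotlib 3.10.9 were used.

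The members and the lists were chosen with earlier results of these data known. Named transcripts are the members, all transcripts of their Trinity genes and components, the other IPPI and GGPPS transcripts assigned by the study, the transcript of highest FPKM of ISPH, MVDD, CDPS, KS and KO, and the 3 nearest pathway transcripts of each member. Alternatives were TPM, median-of-ratios factors over transcripts with at least 1 FPKM in all libraries, a pseudocount of 0.1 FPKM, sums over Trinity genes or enzymes, each root library alone, expected counts for the shares, no filter on low values and a minimum of 10 fragments. No genome and no transcript sequence were used, so neither positions nor sequences are given.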

Additional observations from a re-analysis of the deposited data

How the results depend on the processing

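Of 46 recomputed values, 25 moved by less than the counting limits, or by less than 1.5 times for the count of transcripts, 20 moved by more and 1 changed sign. For IPPI, the log2 ratio of leaf to the averaged roots, 0.58, was 0.39 with TPM, 0.28 against mother root alone, 0.43 against daughter root alone and 1.20 against rootlet alone. It was 1.18 for the sum over the Trinity component, an alternative chosen after seeing the data, as were the sums over all transcripts of an enzyme and the counting limits under other scalings. For GGPPS, 1.29 became 1.73 against mother root alone and 0.94 against daughter root alone. For IPPI, daughter root over mother root turned from a log2 ratio of -0.15 to 0.0552 with median-of-ratios factors, which shifted the median of all transcripts by 0.09. TPM shifted the median of leaf over roots by -0.17.

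The ratio of IPPI to GGPPS with sums over Trinity genes was 3.84 in the leaf, 11.6 in the mother root, 5.48 in the daughter root and 4.14 in the rootlet, and with all assigned transcripts 2.03, 4.74, 2.63 and 2.33. By expected counts, the IPPI Trinity gene held 90.0% in the leaf, 95.3% in the mother root, 91.5% in the daughter root and 93.7% in the rootlet. The 31969 transcripts past 2-fold between leaf and the roots became 62757 with no filter on low values.

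No paired analysis was possible because each organ has 1 library. Counting error was widest in the rootlet, with 69 fragments for the GGPPS transcript and 4 for the short TR42449|c0_g1_i1.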
